A study of Mus musculus with 2 samples.

Results

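The EGF family ligand genes Hbegf, Areg, Ereg, Btc, Tgfa and Nrg1, the receptor genes Egfr, Erbb2 and Erbb3, and Errfi1, which encodes an inhibitor of EGFR, were examined in depolarized mouse mesenteric artery. They are 10 of 55573 listed genes, found by matching each Ensembl gene identifier to its symbol. The set was chosen by gene family, with earlier results of these data known. The study asked which genes are induced by membrane depolarization through excitation-transcription coupling. RNA-seq was performed on mesenteric arteries of wild type C57BL/6 mice aged 10 weeks, with 1 library from arteries in 5 mM K+ (control) and 1 library from arteries in 60 mM K+ (depolarizing), and the labels give 60 min for both. Each library was made from pooled tissue of 2 mice. With 1 library per condition, differences have no replicate check and are given without p-values.

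Reads on genes numbered 10480918 for the control and 11289598 for depolarization. The samples were whole vessel wall, so fewer cells of a type and less RNA per cell cannot be told apart. All 8 smooth muscle markers were present, with 435435 reads in 5 mM K+ and 444934 in 60 mM K+ in sum, led by Acta2 (187183 and 199779 reads) and Myh11 (154041 and 148394 reads). The supplementary methods describe control tissue taken from the distal side of ligated arteries before the rest was perfused with 60 mM K+. The control was harvested after an incubation without perfusion. By that description segment, renewed perfusion, time in solution and K+ cannot be told apart.

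Ligands of the EGF family are made as precursors anchored in the cell membrane and are released by metalloproteases. HB-EGF, amphiregulin, epiregulin, betacellulin and TGF-alpha bind EGFR, whereas neuregulin 1 binds ERBB3 and ERBB4. ERBB2 has no known ligand of its own and pairs with the other receptors, and ERBB3 has little kinase activity and signals through its partner. Bound receptors activate the Ras and ERK cascade, and ERRFI1, also called MIG6, is induced by this signaling and binds the EGFR kinase to inhibit it. In arteries, HB-EGF is known as a mitogen for smooth muscle.

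Levels of different genes were compared in FPKM, which is scaled by gene length and total reads, with 95% Poisson intervals that cover counting error only. Of the 10 genes, Errfi1 had the highest level, 413 FPKM in 5 mM K+ (interval 405 to 421) and 424 FPKM in 60 mM K+ (416 to 432). Among genes with reads, this was rank 214 of 19735 in 5 mM K+ and rank 235 of 18995 in 60 mM K+. Hbegf came next, with 107 FPKM in 5 mM K+ and 197 FPKM in 60 mM K+, and moved from rank 1012 to rank 539. In the control library Egfr (10.6 FPKM), Erbb2 (9.40 FPKM) and Btc (9.08 FPKM) followed, and neighbors among these 3 had overlapping intervals. Below them came Tgfa at 4.83 FPKM, Erbb3 at 2.51 FPKM, Areg at 1.41 FPKM and Ereg at 0.439 FPKM. The intervals of Erbb3 and Areg overlapped. In the depolarized library Tgfa stood at 7.98 FPKM, beside Egfr (7.73 FPKM), Erbb2 (7.68 FPKM) and Btc (7.40 FPKM), and neighbors among these 4 had overlapping intervals. Areg, at 2.11 FPKM, then lay above Erbb3 at 1.12 FPKM and Ereg at 0.815 FPKM, and the intervals of Erbb3 and Ereg overlapped.

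**Figure D1:**
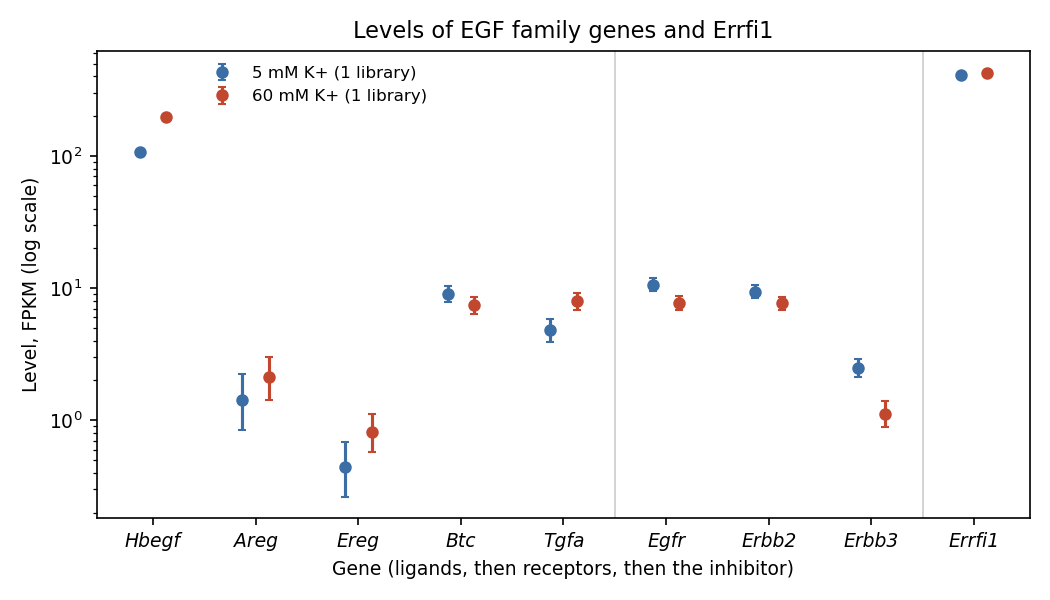
Level of each gene in FPKM (log axis) in the 5 mM K+ library (blue) and the 60 mM K+ library (red), with 95% Poisson intervals for counting error and 1 library per condition. Errfi1 and Hbegf lie at 107 FPKM or above in both libraries and the other 7 genes at 10.6 FPKM or below. Nrg1, with 0 reads, is not drawn.

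Changes were computed as log2(fold-change) of 60 mM K+ over 5 mM K+ with library sizes scaled by TMM (the trimmed mean of M-values in edgeR) and with 95% exact (Clopper-Pearson) counting intervals. A gene was called when log2(fold-change) was above 1 or below -1, and genes below a minimum of 10 reads, summed over both libraries, were not considered. Of the 10 genes, 9 passed this minimum; Nrg1 did not. Above 1 were 2 genes, Hbegf and Ereg, against 5.54% of all 14829 genes considered, and 0 genes lay below -1, against 5.86%. The median of the 9 genes was 0.25, compared with -0.0047 for all genes, and with scaling by total counts these were 0.04 and -0.21. With a minimum of 100 reads, which was added with the values in view, 3.06% of genes lay above 1 and 0.81% below -1, and of the 10 genes this left Hbegf alone. Counting intervals lay wholly above 0 for 4 genes (Hbegf, Ereg, Tgfa and Errfi1; 25% of all genes) and wholly below 0 for 2 genes (Egfr and Erbb3; 20.3% of all genes). Under scaling by total counts each log2(fold-change) is lower by 0.21, which moved the share of calls that were above 1 from 48.6% to 31.9% over all genes. With it, the 9 signs stayed the same, Hbegf (0.88) and Ereg (0.89) came short of 1 (4.05% of all genes above it) and Erbb3 (-1.16) passed -1 (8.67% of all genes below it).

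**Figure D2:**
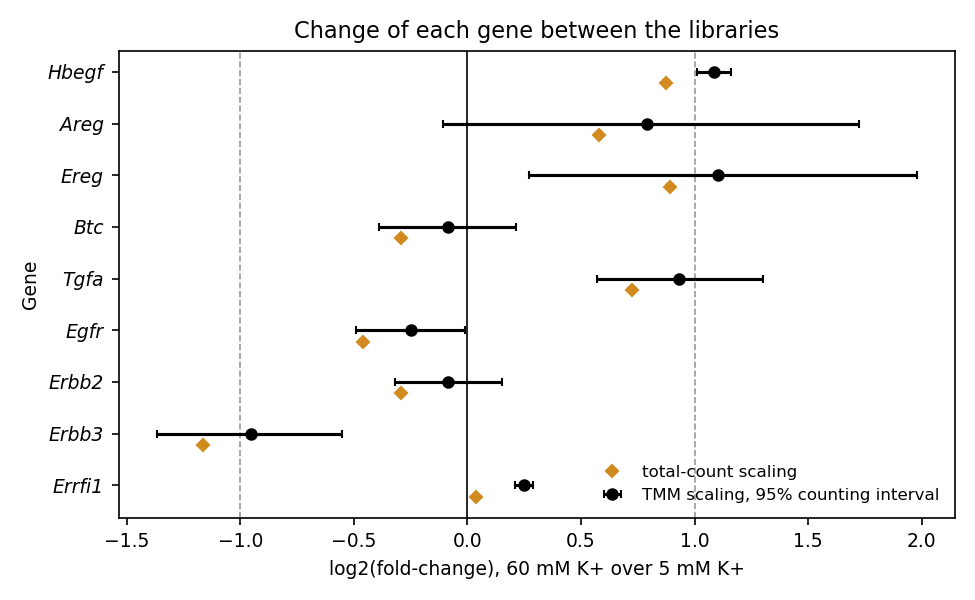
log2(fold-change) of 60 mM K+ over 5 mM K+ for the 9 genes with at least 10 reads. Black points with bars are TMM-scaled values with 95% counting intervals, orange diamonds are values with total-count scaling, and dashed lines mark -1 and 1. Hbegf at 1.08 has a narrow interval and Ereg at 1.10 a wide one, and Erbb3 at -0.95 lies lowest.

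Hbegf (ENSMUSG00000024486, chromosome 18) encodes heparin-binding EGF-like growth factor. Its reads numbered 2139 in 5 mM K+ and 4227 in 60 mM K+, so that log2(fold-change) was 1.08, with an interval from 1.01 to 1.16, or 2.12-fold. Thus its whole interval stayed above 1, as it did for 1.77% of all genes, while 0.492% had theirs below -1. Of the genes considered, 4.98% had a larger increase. Hbegf is also on the study's own list of induced genes, which was drawn from these libraries.

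Tgfa (ENSMUSG00000029999, chromosome 6, 86145420 to 86225151 on mm9) encodes TGF-alpha. Its reads increased from 100 to 178, a log2(fold-change) of 0.93 (interval 0.57 to 1.30), which is short of the limit while its interval includes it. Ereg (ENSMUSG00000029377, chromosome 5, 91503643 to 91522675) encodes epiregulin and had 19 and 38 reads, a log2(fold-change) of 1.10 (interval 0.27 to 1.98). Its estimate was as large as that of Hbegf but rested on 57 reads in all. Among genes of 10 to 99 reads, 12.1% lay above 1 and 19.1% below -1. Areg (ENSMUSG00000029378, chromosome 5, 91568641 to 91577458), the gene of amphiregulin, had 18 and 29 reads. Its log2(fold-change) was 0.79 with an interval from -0.11 to 1.72, so that a difference was not detectable at this depth.

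Btc (ENSMUSG00000082361, chromosome 5, 91786287 to 91831939), the gene of betacellulin, had 197 and 173 reads in the same order. This gave a log2(fold-change) of -0.09 (interval -0.39 to 0.22), which excludes a change as large as that of Hbegf or Tgfa in these libraries, counting error alone considered. Nrg1 (ENSMUSG00000062991, chromosome 8, 32928500 to 33119581) had 0 reads in either library. A count of 0 allows up to 3 reads, which is 0.266 CPM (counts scaled to a total of 1000000) in 5 mM K+ and 0.286 CPM in 60 mM K+.

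In the sum of the 5 EGFR ligands, Hbegf made up 87.2% of the FPKM in 5 mM K+ and 91.5% in 60 mM K+. This sum was 123 FPKM at the lower K+ and 215 FPKM at the higher. Btc, the next ligand in 5 mM K+, made up 7.39% of the sum there and 3.44% in 60 mM K+. Tgfa made up 3.93% and 3.71%, Areg 1.15% and 0.984%, and Ereg 0.357% and 0.379%.

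All 3 receptor genes had fewer reads in the depolarized library, although the interval of Erbb2 included 0. Egfr (ENSMUSG00000020122, chromosome 11, 16652206 to 16818161) had 329 and 258 reads, a log2(fold-change) of -0.25 (interval -0.49 to -0.0098). Its interval thus only just excluded 0. For Erbb2 (ENSMUSG00000062312, chromosome 11, 98273784 to 98299030) there were 323 and 284 reads, and log2(fold-change) was -0.08 (interval -0.32 to 0.15). Erbb3 (ENSMUSG00000018166, chromosome 10, 128004579 to 128026708) had 158 and 76 reads, a log2(fold-change) of -0.95 (interval -1.37 to -0.55). It was the lowest value among the 9 genes, and 6.29% of all genes had a larger decrease.

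Errfi1 (ENSMUSG00000028967, chromosome 4, 150228028 to 150243001) had 9552 and 10574 reads, a log2(fold-change) of 0.25 (interval 0.21 to 0.29). With total-count scaling it was 0.04, so that most of this value depends on the scaling. Of the 9 genes Errfi1 had the most reads and the narrowest interval. Of the overlapping genes that have counts, 1810046J19Rik, on the strand opposite to Erbb2, had the most, 9 and 10 reads. The sources do not say whether strand was used in counting, so reads of overlapping genes cannot be told apart.

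Ratios to Egfr within a library do not depend on scaling. In FPKM, Hbegf stood at 10.1 times the level of Egfr in 5 mM K+ and at 25.4 times in 60 mM K+. From the reads, this ratio was 2.52 times as large in the depolarized library (exact 95% interval 2.12 to 3.00). The ratio of Tgfa to Egfr was 2.27 times as large (interval 1.67 to 3.08) and that of Ereg 2.55 times (1.39 to 4.80). For Areg the factor was 2.05, with an interval from 1.07 to 4.02. The ratio of Errfi1 to Egfr went from 38.9 to 54.9 in FPKM, a factor of 1.41 (1.19 to 1.67). For Btc and Erbb2, whose factors were both 1.12, intervals of 0.855 to 1.47 and 0.887 to 1.42 included 1, and for Erbb3 the factor was 0.614 (0.439 to 0.853). Intervals relative to Egfr thus lay above 1 for 4 of the 5 EGFR ligands and Errfi1, counting error alone considered. The share of all genes with such an interval was not computed, so this count is not set apart from other genes. Egfr was itself lower in the depolarized library, and by estimate alone 70.4% of all genes considered had a higher log2(fold-change) than Egfr. For Areg without reference to Egfr, the counting interval included 0 (-0.11 to 1.72). All these ratios share the reads of Egfr.

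Sequences around the transcription start were examined because the study concerns CREB, the factor that binds the cAMP response element (CRE). RefSeq promoter windows (GRCm38.p6, 250 bases before to 50 after the start) were at hand for Areg, Btc, Tgfa, Egfr, Erbb2 and Errfi1, and not for Hbegf, Ereg, Nrg1 and Erbb3. The full CRE, TGACGTCA, which reads the same on both strands, occurred in 2 of these 6 genes, Areg and Errfi1, and in 2.03% of 27025 genes with a window (1.79% of 32851 windows). The 250 bases before the start of Areg (chr5:91139349-91139598, plus strand) and before the second of the 2 starts of Errfi1 (chr4:150854820-150855069, plus strand) are shown 5′ to 3′, as the genes among the 6 that carry it, with the CRE in capitals.
Areg: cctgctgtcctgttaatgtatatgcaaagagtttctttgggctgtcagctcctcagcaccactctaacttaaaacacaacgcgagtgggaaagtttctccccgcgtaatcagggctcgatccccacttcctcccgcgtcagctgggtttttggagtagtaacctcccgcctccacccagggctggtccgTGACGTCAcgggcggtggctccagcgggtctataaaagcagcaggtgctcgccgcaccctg
Errfi1: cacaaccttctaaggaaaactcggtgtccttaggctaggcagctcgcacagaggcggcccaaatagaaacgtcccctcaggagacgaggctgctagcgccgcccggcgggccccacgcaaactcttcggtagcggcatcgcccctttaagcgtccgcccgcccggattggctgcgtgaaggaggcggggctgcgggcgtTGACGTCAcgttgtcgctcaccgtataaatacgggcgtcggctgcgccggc
In Areg the site spans bases -61 to -54 counted back from the start, and in Errfi1 bases -51 to -44. The window of the other Errfi1 start held no full CRE. The short CRE, TGACG, which is contained in the full site, was present on either strand in 4 of the 6 genes (Areg, Btc, Erbb2 and Errfi1), and in 23.0% of all genes with a window. The AP-1 motif TGANTCA was found in 0 of the 6, and in 8.97% of all genes. A match to letters is no evidence of binding, and both genes with a full CRE stayed below 1 in log2(fold-change), Areg at 0.79 and Errfi1 at 0.25.

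Areg, Ereg, Btc and Epgn, the gene of epigen, lie together within 375 kb of mouse chromosome 5, next to a cluster of CXC chemokine genes. Within 500000 bases of these 4 genes, 10 of 16 protein-coding genes had at least 10 reads. Of the 10, 4 lay above 1 (5.54% of all genes) and 2 below -1 (5.86% of all genes). Those above 1 were Ereg and 3 neutrophil-attracting chemokine genes. Cxcl1 (91320267 to 91322141) had 522 and 4212 reads, a log2(fold-change) of 3.11, and Cxcl2 (91332897 to 91334935) had 157 and 1155 reads, a log2(fold-change) of 2.98. Cxcl5 (91188325 to 91190651) had 0 and 53 reads, and the lower end of its interval was 3.90. Ereg starts 169 kb and Areg 234 kb beyond the end of Cxcl2. Between Cxcl2 and the ligand genes lies Mthfd2l, which encodes a mitochondrial folate enzyme, with 175 and 188 reads and a value of 0.20 (interval -0.10 to 0.51). On the far side of Btc, Parm1 had a log2(fold-change) of -0.08. Below -1 were Rassf6 (14 and 4 reads, -1.71) and the platelet chemokine gene Pf4 (21 and 8 reads, -1.29). Values along this stretch thus differed, with Cxcl2 at 2.98 (interval 2.74 to 3.23) and Mthfd2l, the next of the genes considered, at 0.20. The interval of Ereg (0.27 to 1.98) overlapped that of Mthfd2l. It did not overlap that of Btc (-0.39 to 0.22), and Areg lies between Ereg and Btc.

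**Figure D3:**
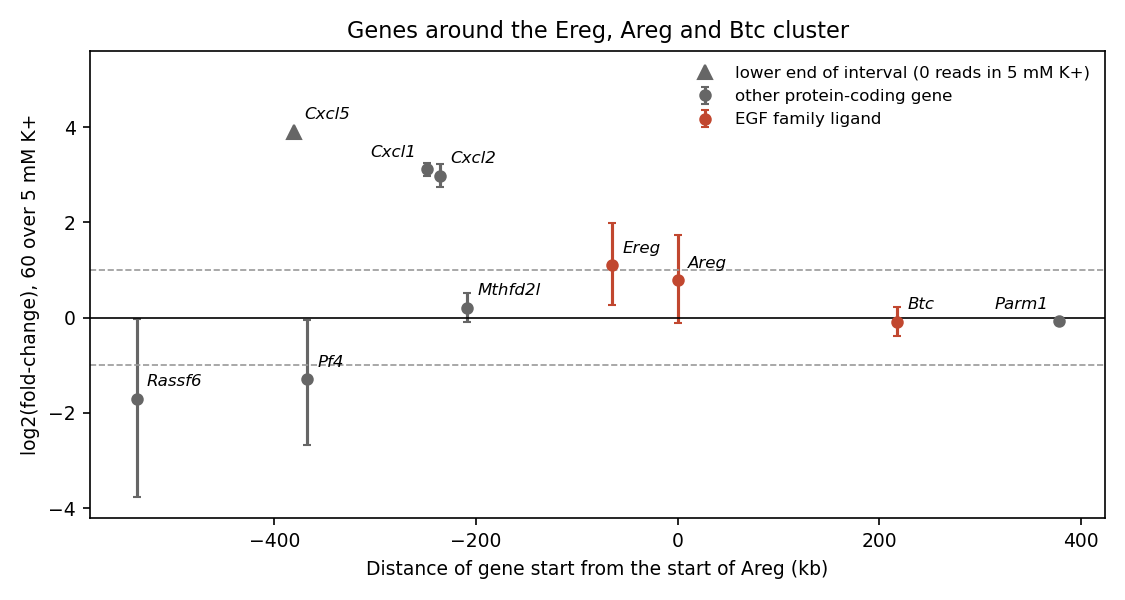
log2(fold-change) with 95% counting intervals of the 10 genes with at least 10 reads around Ereg, Areg and Btc, plotted against the distance of each gene start from that of Areg. The triangle marks the lower end of the interval of Cxcl5 (3.90), which had 0 reads in 5 mM K+. Cxcl1 (3.11) and Cxcl2 (2.98) stand well above Ereg (1.10) and Areg (0.79), and Mthfd2l (0.20) and Btc (-0.09) lie near 0.

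The other genes of the family had few reads. Erbb4, the remaining receptor, had 1 and 9 reads, a log2(fold-change) of 3.27 with an interval from 0.42 to 8.73. Egf had 14 and 8 reads (interval -2.17 to 0.65) and the neuregulin gene Nrg4 had 13 and 12 reads (interval -1.28 to 1.24). Below the minimum were Nrg2 with 5 and 0 reads, Epgn with 1 and 0 reads and Nrg3 with 0 in either library. Thus Hbegf, Btc and Tgfa were the ligand genes with at least 100 reads.

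Among 12 genes of ligand shedding, 11 had at least 10 reads, with a median log2(fold-change) of 0.04. Of the 11, 1 lay above 1 (5.54% of all genes) and 0 below -1 (5.86% of all genes). The gene above 1 was Rhbdf2, which encodes iRhom2, a partner of ADAM17 in its maturation and transport to the cell surface. It had 505 and 1037 reads, a log2(fold-change) of 1.14 (interval 0.98 to 1.30), and 0.93 with total-count scaling. Its relative Rhbdf1 had 1713 and 1516 reads (-0.07). Adam17, the main protease of several EGFR ligands, had 565 and 467 reads, a log2(fold-change) of -0.17 (interval -0.35 to 0.0060). Adam10 was at -0.13. The members with the most reads were Timp3, an inhibitor of ADAM17, with 8577 and 8196 reads (0.04), and Adam15, with 3057 and 4452 reads (0.64).

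Adaptors and kinases that carry the signal from the receptors stayed between -0.46 and 0.56. Of these 21 genes, 0 were above 1 and 0 below -1, against 5.54% and 5.86% of all genes, and their median was 0.08. The members with the most reads were Ptpn11, the gene of the phosphatase SHP2, with 2597 and 2332 reads (-0.05), and Akt1 with 2246 and 2406 reads (0.20). Feedback inhibitors other than Errfi1 had a median of 0.05. Of 19 such genes 18 had at least 10 reads, and again 0 were called in either direction. Ptprj, a receptor phosphatase, was at 0.34 and the tetraspanin gene Cd82 at 0.56, the members with the most reads. The Sprouty gene Spry4, named here after its value was seen, had the highest value of this list, 0.74, and Lrig3 the lowest, -0.49. With total-count scaling the medians of the shedding, transducer and feedback lists turned to -0.17, -0.13 and -0.16, near the -0.21 of all genes. Cbl, whose product tags EGFR with ubiquitin, had 658 and 447 reads (-0.46).

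Genes used as read-outs of ERK signaling had a median of 0.74. Of the 18, 7 lay above 1 (5.54% of all genes) and 0 below -1 (5.86% of all genes). The median was 0.53 with total-count scaling. Those above 1 were Etv4 at 2.91 (2 and 14 reads), Dusp5 at 2.51 (83 and 440 reads), Plaur at 1.89, Fosl1 at 1.82, Myc at 1.68, Phlda1 at 1.29 and Ier3 at 1.25. Of these, Dusp5, Plaur, Myc and Ier3 are on the study's own list of induced genes. All 7 values come from the same libraries as that list, and the genes here were chosen with earlier results known. None of the 7 is therefore independent evidence. The members with the most reads were Fos, with 30685 and 38205 reads (0.42), and Junb, with 22840 and 33795 reads (0.67). Dusp6, the ERK phosphatase, was at 0.76, and Ccnd1, the gene of cyclin D1, at -0.71. Many other pathways induce these genes, and no value here ties them to the EGF family.

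**Figure D4:**
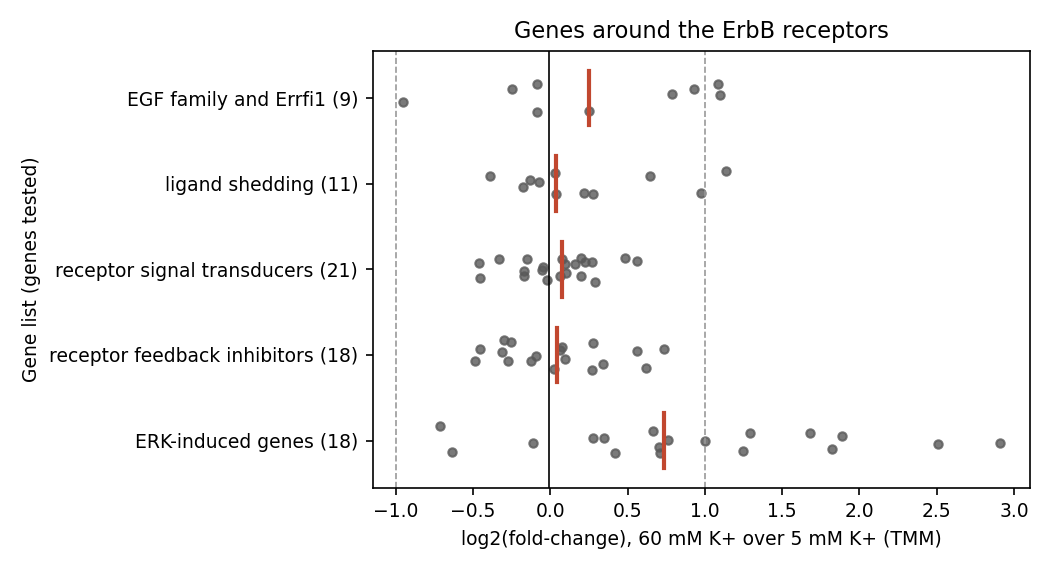
log2(fold-change) of each gene with at least 10 reads in 5 gene lists, 1 point per gene, with the median of each list as a red bar, the median of all genes as a black line and dashed lines at -1 and 1. Shedding, transducer and feedback genes center at 0.04, 0.08 and 0.05, while ERK-induced genes center at 0.74 and 7 of 18 exceed 1, against 5.54% of all genes. The lists were chosen with earlier results of these data known.

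Markers of cell types that could carry these genes also differed between the libraries. The 8 endothelial markers had 36281 and 45737 reads in sum and a median log2(fold-change) of 0.26, or 0.05 with total-count scaling. Of the 8, 0 lay above 1 (5.54% of all genes) and 1 below -1 (5.86% of all genes), Kdr at -1.10. Intervals lay wholly above 0 for 6 (25% of all genes) and wholly below 0 for 1 (20.3% of all genes). Emcn was at -0.83 on 21 and 11 reads. The sum was mostly Pecam1 (19497 and 25719 reads, 0.50) and Vwf (10480 and 11820 reads, 0.28). Relative to the summed endothelial reads, log2(fold-change) was 0.65 for Hbegf (interval 0.57 to 0.73) and 0.50 for Tgfa (0.14 to 0.87), and relative to the smooth muscle sum it was 0.95 and 0.80. For Ereg the value relative to the endothelial sum had an interval from -0.16 to 1.54. Errfi1 was higher relative to the smooth muscle sum (0.12, interval 0.08 to 0.16) and lower relative to the endothelial sum (-0.19, interval -0.23 to -0.14), so that its direction depends on the reference. Pancreatic acinar markers, with 8 of 10 at 10 reads or more, had 165 and 532 reads in sum. Of these 8, 7 lay above 1 (5.54% of all genes) and 0 below -1 (5.86% of all genes), with Pnlip at 2 and 61 reads. Prss1 and Amy2a5 were at 0. This sum stayed below the reads of Hbegf and lay above those of Tgfa, Ereg and Areg in both libraries. Relative to it, Hbegf was at -0.71 (interval -0.98 to -0.44), and its part in the ligand values was not tested.

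Schwann cells are known to carry ERBB3, and their 8 markers had 2681 and 2311 reads in sum, with a median of -0.10 and a range from -0.54 to 0.24. Relative to this sum, Erbb3 was lower by a log2(fold-change) of -0.84 (interval -1.26 to -0.43). Among them, Mbp had 584 and 462 reads. Adipocyte markers, from fat around the vessels, had 2014 and 1370 reads in sum and a median of -0.97. Of the 6 considered, 3 lay below -1 (5.86% of all genes), which were Adipoq, Plin1 and Cfd. Above 1 (5.54% of all genes) was 1, Lep, on 1 and 9 reads. Fabp4, the adipocyte marker with the most reads, had 1060 and 951 reads, a value of -0.06 (interval -0.18 to 0.07). Relative to the adipocyte sum, Erbb3 was at -0.50 (interval -0.93 to -0.08). Fabp4 holds most of that sum. Without it, which was tried after its value was seen, the adipocyte sum was 954 and 419 reads, and Erbb3 relative to it was at 0.13 (interval -0.32 to 0.57). The decrease of Erbb3 was thus larger than that of the Schwann cell sum and of the full adipocyte sum, counting error alone considered. It was not told apart from that of the adipocyte markers other than Fabp4, a set formed with the values in view. Relative to the fibroblast, macrophage, smooth muscle and endothelial sums Erbb3 was at -0.86, -0.83, -1.09 and -1.39, all with intervals wholly below 0. The part of adipocyte RNA in the value of Erbb3 was not tested. Egfr was at -0.38 relative to the smooth muscle sum (interval -0.62 to -0.14) and at -0.68 relative to the endothelial sum (interval -0.93 to -0.44). Relative to the fibroblast sum it was at -0.16 (interval -0.40 to 0.09) and relative to the adipocyte sum at 0.21 (interval -0.06 to 0.47), or 0.84 (interval 0.54 to 1.13) without Fabp4.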

How the data were processed

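RNA-seq libraries of mesenteric artery (1 per condition, 10480918 and 11289598 reads on genes) were analyzed as deposited. Alignment by the authors was to mm9 (TopHat2). Unnormalized counts for each gene were deposited together with FPKM, and the deposited counts divided by FPKM show that FPKM was scaled by total counts. The submitters' processing notes name TopHat2 2.0.12, HTSeq 0.6.1 and edgeR 3.0.8; the annotation is not given in the sources used here. Symbols came from GENCODE vM1 (mm9), which holds 32601 of 55573 identifiers; Adgre1 and Hras were matched by RefSeq synonyms.

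TMM factors (1.07 and 0.930) came from edgeR 4.0.16 (R 4.3.3). A count of 0 entered as 0.5. Intervals (scipy 1.17.1) cover counting error only. Without replicates edgeR's quasi-likelihood test could not be run. Positions of genes are on mm9 and promoter windows on GRCm38.p6. The calculation was tested on simulated data. Other settings tried were scaling by median-of-ratios (DESeq2 1.42.0), upper-quartile or total counts, other minimum counts, other call rules and FPKM with pseudocounts of 0.1 and 1.

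The genes and lists were chosen with earlier results of these data known. Named are the 10 genes, the rest of the family, of each list the called genes and the 2 with the most reads, and genes around the chromosome 5 cluster; other list members, and the ratios to marker sums, were chosen after their values were seen. Figures were drawn with matplotlib 3.10.9.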

Additional observations from a re-analysis of the deposited data

How the results depend on the processing

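No paired analysis was possible because only 1 library stood for either condition, and no replicate could be left out. Of the 10 genes, 2 lay above 1 and 0 below -1. Above 1 there were 0 with total counts or with FPKM at either pseudocount, whose scaling is by total counts, 1 (Hbegf) with the whole counting interval, the random-sampling test of DEGSeq (recomputed from its formula, q under 0.005) or at least 100 reads, and 0 with edgeR's exact test at an assumed coefficient of variation of 0.2 or 0.4. Below -1 there was 1 (Erbb3) with total counts and with FPKM at a pseudocount of 0.1. Over all genes, 822 lay above and 869 below. These counts were 3081 and 2491 with no minimum, 412 and 211 at 50 reads, 329 and 87 at 100 reads, 263 and 73 with the whole interval, 466 and 269 with the random-sampling test, 138 and 19 at a coefficient of 0.2 and 3 and 0 at 0.4, all by construction fewer or more genes or a stricter rule, and 497 above with FPKM at 0.1 and 240 and 193 at 1. Upper-quartile and median-of-ratios scaling kept all 4 counts within 1.5 times. Of the single-gene values under other scalings, 38 stayed within their counting interval and 7, of Hbegf and Errfi1, did not; 0 called genes changed sign. Of the counts and medians of the lists, 262 stayed close and 23 moved, most of them counts of a few genes. The full CRE was in 2 of 6 genes in the shorter window as well. What depth limits is Areg and Ereg, with 47 and 57 reads.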

Other observations

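Markers of further cell types that could carry EGF family genes were also counted. Fibroblast markers, led by Col1a2 (23529 and 20172 reads) and Col1a1 (17966 and 15839 reads), had a median log2(fold-change) of -0.10, or -0.31 with total-count scaling. Of these 8 markers, 0 lay above 1 (5.54% of all genes) and 0 below -1 (5.86% of all genes). Their intervals lay wholly below 0 for 6 (20.3% of all genes), among them Lum at -0.43 and Dpt at -0.38. They lay wholly above 0 for 2 (25% of all genes), Pi16 and Cd34. Macrophage markers had 667 and 570 reads in sum and a median of -0.06. Of these 10 markers, 0 lay above 1 (5.54% of all genes) and 0 below -1 (5.86% of all genes). Intervals lay wholly below 0 for 2 (20.3% of all genes), Lyz2 and Csf1r. Lyz2 had 160 and 87 reads (-0.78) and Csf1r 62 and 34 reads (-0.77). For 1 (25% of all genes), Fcer1g with 22 and 39 reads (0.93), the interval lay wholly above 0. C1qa had 119 and 112 reads. Mast cell markers had 24 and 29 reads in sum, led by Cpa3 with 9 and 11 reads, and lymphocyte markers had 10 and 9 reads. Epithelial and mesothelial markers had 26 and 32 reads in sum. Of these, Epcam, Cdh1, Krt8, Msln, Upk3b and Lrrn4 had 0 reads in both libraries, and of the 2 at 10 reads or more Krt18 had 19 and 18 reads and Krt7 had 3 and 8 reads, a log2(fold-change) of 1.52 with an interval from -0.54 to 4.07.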
